A study of Mus musculus with 167 samples.

Results

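The genes described here are 8 genes of the major histocompatibility complex (MHC) pathways, of 38924 genes in the deposited table. The 8 were chosen by name and not by a cut on their values, but with earlier results of these data known. They are B2m, H2-K1 and H2-D1, which make the classical class I molecules, Cd74, H2-Aa, H2-Ab1 and H2-Eb1, which make the class II molecules and their chaperone, and Ciita, the class II transactivator. They were followed in single lymphoid-primed multipotent progenitors (LMPPs), early blood progenitors of the bone marrow that can give lymphoid and granulocyte-monocyte cells. The LMPPs came from wild-type female C57BL/6J mice of 14 months and of 4 months. Both ages were sorted in the same way, as lineage-negative Sca-1+ c-Kit+ CD150- CD34+ cells with high Flt3, and were captured singly on a Fluidigm C1 chip.

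MHC class I molecules stand on nearly all nucleated cells and show peptides from inside the cell to CD8 T cells. Each is a heavy chain, such as the product of H2-K1 or H2-D1, held together with beta-2 microglobulin, the product of B2m. Class II molecules show peptides from endosomes to CD4 T cells and are made mainly by dendritic cells, B cells and macrophages. They pair an alpha with a beta chain: H2-Aa and H2-Ab1 encode the pair of I-A, and H2-Eb1 encodes the beta chain of I-E. Cd74 is the invariant chain that fills the groove of a new class II molecule until it reaches the endosome. Ciita is the co-activator on which class II transcription depends, and Nlrc5 is its relative for class I. Both act through a promoter module, with X and Y boxes, that is bound by the RFX complex, CREB-family factors and the trimer NF-Y.

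Of 168 columns, 1 per cell, 84 belonged to 14-month and 84 to 4-month mice. A cell was kept when at least 1000 genes reached 1 TPM (a length-corrected share of the cell's transcripts, scaled to a total of 1000000), which left 66 cells of 14 months and 64 of 4 months. The 14-month columns carry a set number, 4 or 5, that no source used here explains: 29 kept cells were of set 4 and 37 of set 5. Since animals are not named in the labels, each age is 1 sample, there is no replicate check, and no test between the ages was possible. Intervals below are exact (Clopper-Pearson) 95% binomial intervals and cover counting error only, and each SD is over cells. A median of 3281 genes was detected per cell at 14 months (3230 in set 4, 3376 in set 5), against 3974.5 at 4 months. Mitochondrial transcripts took a median of 17.7% of TPM in cells of 14 months and 12.4% in those of 4 months. Among the sort's genes, Flt3 was detected in 61 of 66 cells at 14 months and in 64 of 64 at 4 months, and Cd34 in 58 cells at 14 months and 57 at 4 months. Kit was found in 35 cells at 14 months and 43 at 4 months, and Ly6a, the Sca-1 gene, in 25 at each age. Nearly all kept cells thus had Flt3 and most had Cd34, while Kit and Ly6a were below 1 TPM in many cells sorted as positive for their proteins.

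The promoters of the members are shown first, because the X and Y boxes are what both classes of genes have in common. RefSeq (GRCm38.p6, the same build as mm10) gave a promoter for 5 of the 8 members: H2-Aa, H2-Eb1, B2m, H2-K1 and H2-D1. The 130 bases before the annotated start are printed for the genes in which this window held no annotated exon. They run 5′ to 3′ on the gene's own strand. Capitals mark 3 short motifs: GCAAC, found in X1 boxes, TGACG, found in CREB-type X2 boxes, and ATTGG, the reversed CCAAT box bound by NF-Y.
H2-Aa, chr17:34287824-34287953, minus strand: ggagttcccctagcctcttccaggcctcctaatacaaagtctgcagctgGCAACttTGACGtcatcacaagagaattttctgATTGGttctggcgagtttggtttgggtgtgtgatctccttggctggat
H2-Eb1, chr17:34305737-34305866, plus strand: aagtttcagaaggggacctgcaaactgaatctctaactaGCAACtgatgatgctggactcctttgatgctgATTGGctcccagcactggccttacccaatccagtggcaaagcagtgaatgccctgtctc
H2-K1, chr17:34000348-34000477, minus strand: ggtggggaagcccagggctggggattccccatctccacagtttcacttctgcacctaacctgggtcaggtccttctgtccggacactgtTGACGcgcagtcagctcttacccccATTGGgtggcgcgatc
In H2-Aa all 3 motifs stood in order, with 28 bases between GCAAC and ATTGG and 21 between TGACG and ATTGG. The H2-Eb1 window had GCAAC and then ATTGG, 27 bases apart. For H2-K1 the order was TGACG and then ATTGG with 20 bases between them, and the same 20 bases separated this pair in the windows of B2m and H2-D1, which are not shown. Counted on either strand of 32851 RefSeq windows of 250 bases before a start, GCAAC was present in 29.9%, TGACG in 17.8% and ATTGG in 33.8%, so single matches are common. The ordered pairs were rarer: TGACG then ATTGG, on the gene's strand with 10 to 35 bases between, stood in 115 windows (0.350%), and GCAAC then ATTGG in 184 (0.560%). Motifs and distances were chosen after these promoters had been read, and a match describes the letters only. Only matches on the gene's own strand are in capitals, and these do not overlap one another. In H2-Aa both pairs share the same ATTGG, and TGACG also matches on the opposite strand, overlapping the marked one. H2-Eb1 has a further ATTGG on the opposite strand.

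Class I genes were detected in nearly every kept cell of both ages. B2m was detected, at 1 TPM or more, in 66 of 66 cells of 14 months (94.6 to 100%) and in 61 of 64 cells of 4 months (95.3%, 86.9 to 99.0%). H2-K1 was detected in 66 of 66 cells at 14 months and in 60 of 64 at 4 months (93.8%, 84.8 to 98.3%). H2-D1 was found in 63 of 66 cells at 14 months (95.5%, 87.3 to 99.1%) and in 58 of 64 at 4 months (90.6%, 80.7 to 96.5%). These genes lie on chromosome 2 (B2m, mm10 chr2:122147686-122153083, plus strand) and in the MHC on chromosome 17 (H2-K1, chr17:33996017-34000347, minus strand; H2-D1, chr17:35262730-35267499, plus strand).

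B2m, the light chain, ranged over the 14-month cells from 7.22 TPM through a median of 2042 to 8147 TPM, against 0, 2671 and 4963 TPM in the 4-month cells. H2-K1, a heavy chain, ranged from 1.14 through 966 to 6111 TPM at 14 months, against 0, 752 and 4110 TPM at 4 months. H2-D1, the other classical heavy chain of this strain, ranged from 0.22 through 655 to 3377 TPM at 14 months, against 0, 661 and 2480 TPM at 4 months. The ages overlapped over nearly the whole range of each gene. The median of B2m was lower at 14 months and its highest cells were higher. At the lower end, 3 cells of 4 months were at 0 for B2m, 4 for H2-K1 and 6 for H2-D1, while no kept cell of 14 months was at 0 for any of them. The 4-month cells at 0 had 1066 to 2550 genes detected, below that age's median, and 2 of them lacked all 3 class I genes.

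**Figure D1:**
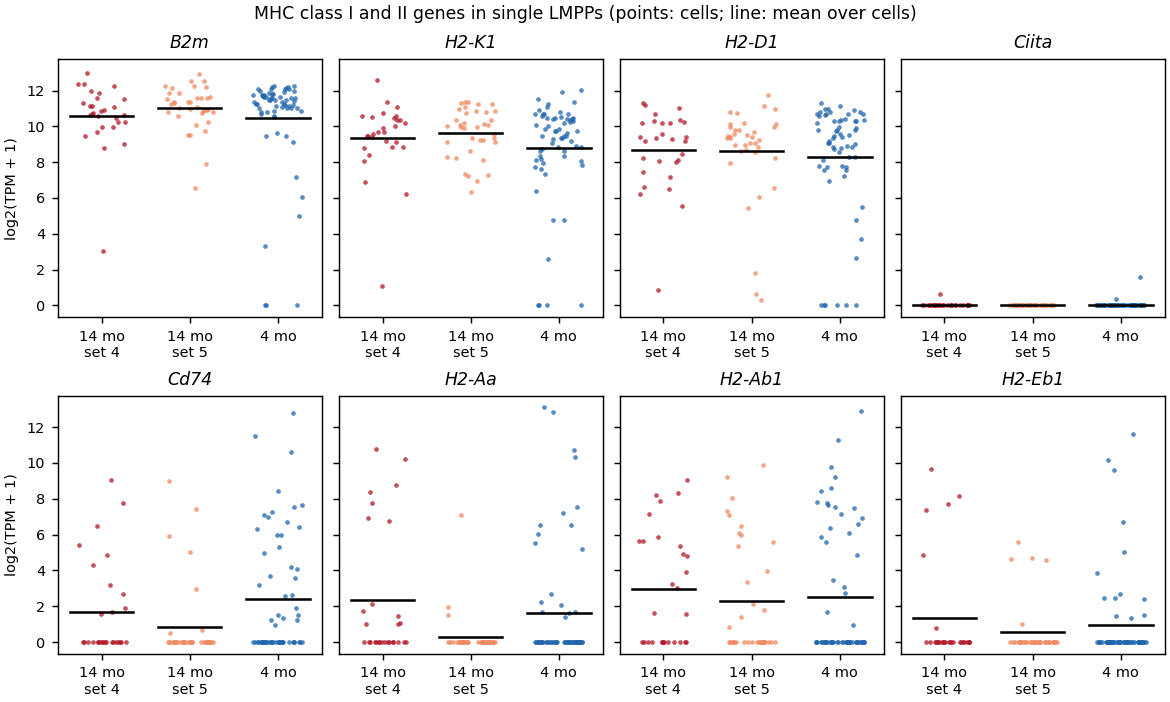
Level of each of the 8 genes in every kept cell, as log2(TPM + 1), for 14 months set 4 (red, 29 cells), 14 months set 5 (orange, 37 cells) and 4 months (blue, 64 cells). Points are cells and black lines are means over cells. Class I genes form a high band with a low tail that is longer at 4 months, class II genes split into cells at 0 and cells spread over the whole scale, and Ciita lies at or near 0.

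On the mean of log2(TPM + 1), B2m stood at 10.84 ± 1.50 in 14-month cells and 10.44 ± 2.85 in 4-month cells (SD, n = 66 and 64 cells). H2-K1 stood at 9.51 ± 1.69 in 14-month cells and 8.79 ± 2.83 in 4-month cells. H2-D1 stood at 8.64 ± 2.43 in 14-month cells and 8.30 ± 3.18 in 4-month cells. Fewer genes were detected per cell at 14 months, and the median of 9224 measured genes (mean of both ages' shares of cells at least 10%) differed by -0.36, 14 months minus 4 months, and 77.0% of them had a negative difference. Differences are therefore given relative to that median (for each set, to its own, -0.42 for set 4 and -0.32 for set 5), and a gene is called higher at 1 or more and lower at -1 or less. Relative to the median gene, H2-K1 was higher by 1.08 (0.998, just under the call, in set 4 and 1.16 in set 5). The corresponding differences were 0.75 for B2m (0.58 in set 4, 0.90 in set 5) and 0.70 for H2-D1 (0.82 in set 4, 0.62 in set 5), below the call. Both passed it with a pseudocount of 0.1 (1.16 for B2m, 1.19 for H2-D1) and over every column (1.55 and 1.35), and H2-D1 also in cells matched on genes detected (1.14). With the settings as reported, 311 of all measured genes (3.37%) were called higher and 469 (5.08%) lower. No such shares are given for the other settings, so calls gained there stand without a background. With a pseudocount of 0.1 the median of all measured genes itself moved from -0.36 to -0.60. Of the 7 measured members, H2-K1 was called higher and none was called lower.

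The sizes depended on how cells were summarised. When the median of the cells replaced their mean, the relative difference was 0.36 for H2-K1, -0.39 for B2m and -0.013 for H2-D1, so B2m changed sign and H2-K1 lost its call. Over the cells in which each gene was detected, the mean log2(TPM + 1) was 10.84 at 14 months and 10.96 at 4 months for B2m. It was 9.51 at 14 months and 9.37 at 4 months for H2-K1, and 9.03 at 14 months and 9.16 at 4 months for H2-D1. Over detected cells the gap between the ages was thus small for each gene, and for B2m and H2-D1 it was negative before the median gene was subtracted. Among 319 genes detected in at least 90% of cells, whose median difference was -0.32, 90.3% had a lower difference than H2-K1, 82.4% a lower one than B2m and 79.0% a lower one than H2-D1. In cells with at least 2000 genes the relative difference was 0.71 for H2-K1, 0.65 for B2m and 0.39 for H2-D1.

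A ratio of TPM values within a cell does not depend on the cell's total. The median log2 ratio of H2-K1 to B2m was -1.13 over 66 cells of 14 months (quartiles -2.13 and -0.39), against -1.63 over 59 cells of 4 months with both genes (quartiles -2.57 and -1.02). The 14-month sets had medians of -1.03 (set 4) and -1.23 (set 5). H2-K1 exceeded B2m in 12 of 66 cells at 14 months and in 4 of 59 at 4 months. The quartile ranges overlapped. The median log2 ratio of H2-D1 to B2m was -1.69 at 14 months and -1.91 at 4 months, and that of H2-K1 to H2-D1 was 0.53 at 14 months and 0.23 at 4 months. The sum of all 3 genes had a median of 4010 TPM at 14 months (9.18 to 10536) and 4528 TPM at 4 months (0 to 9474).

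**Figure D2:**
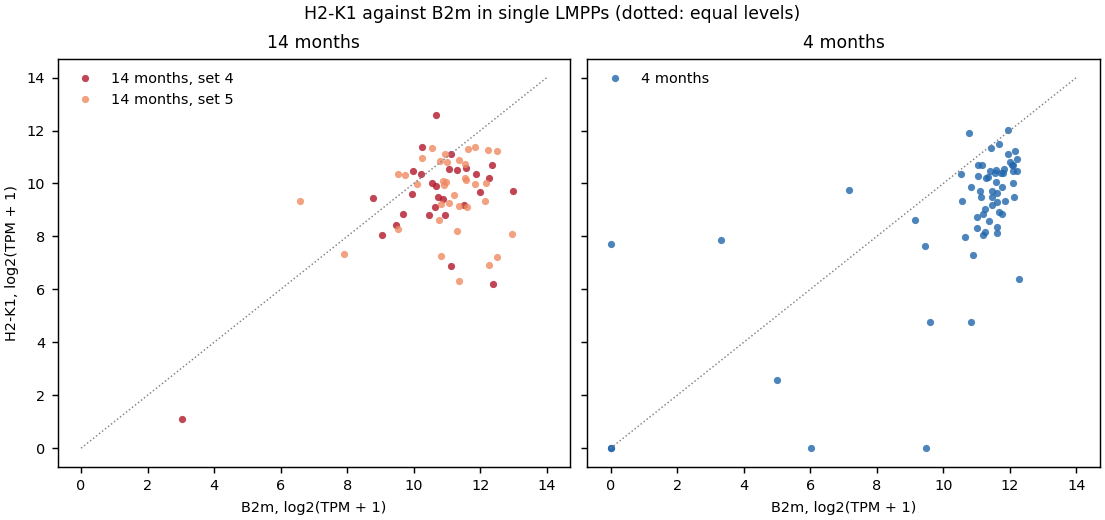
H2-K1 against B2m in each kept cell, both as log2(TPM + 1), at 14 months (left; set 4 red, set 5 orange) and at 4 months (right, blue), where the dotted line marks equal levels. H2-K1 lies above the line in 12 of 66 cells at 14 months and in 4 of the 59 cells of 4 months with both genes, and the 4-month panel has a tail of cells low for both.

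Across cells, the Spearman correlation of B2m with H2-K1 was 0.11 at 14 months (66 cells; 0.29 in set 4, -0.0076 in set 5) and 0.57 at 4 months (64 cells). For B2m with H2-D1 it was 0.23 at 14 months and 0.55 at 4 months, and for H2-K1 with H2-D1 it was 0.44 at 14 months and 0.60 at 4 months. Cells differ in genes detected and, at 14 months, in set, so these values describe the cells and were not tested. Reads of H2-K1 and H2-D1 can also be shared with each other and with the H2-Q and H2-T genes, which are close paralogs, so each of these values is uncertain as that of a single gene.

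Class II genes were each found in fewer than 50% of cells at either age. Cd74, the invariant chain, was detected in 16 of 66 cells at 14 months (24.2%, 14.5 to 36.4%) and in 29 of 64 at 4 months (45.3%, 32.8 to 58.3%). H2-Ab1, the beta chain of I-A, was detected in 31 cells at 14 months (47.0%, 34.6 to 59.7%) and in 23 at 4 months (35.9%, 24.3 to 48.9%). H2-Aa, the alpha chain of I-A, was detected in 15 cells at 14 months (22.7%, 13.3 to 34.7%) and in 18 at 4 months (28.1%, 17.6 to 40.8%). H2-Eb1, the I-E beta chain, was detected in 10 cells at 14 months (15.2%, 7.51 to 26.1%) and in 13 at 4 months (20.3%, 11.3 to 32.2%). The order of the shares thus differed: H2-Ab1 led at 14 months and Cd74 at 4 months, although the intervals of both ages overlapped for each gene. C57BL/6 mice are known to lack a working I-E alpha chain, so H2-Eb1 is read here as a transcript only.

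The 14-month sets did not have the same class II shares. Cd74 was detected in 11 of 29 cells of set 4 (37.9%) and in 5 of 37 of set 5 (13.5%). H2-Aa was detected in 12 of 29 cells of set 4 (41.4%, 23.5 to 61.1%) and in 3 of 37 of set 5 (8.11%, 1.70 to 21.9%). H2-Ab1 was detected in 55.2% of set 4 and 40.5% of set 5, and H2-Eb1 in 17.2% and 13.5%. For H2-Aa the share at 4 months, 28.1%, lay between those of the 14-month sets, and so the sign of an age difference depended on the set.

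**Figure D3:**
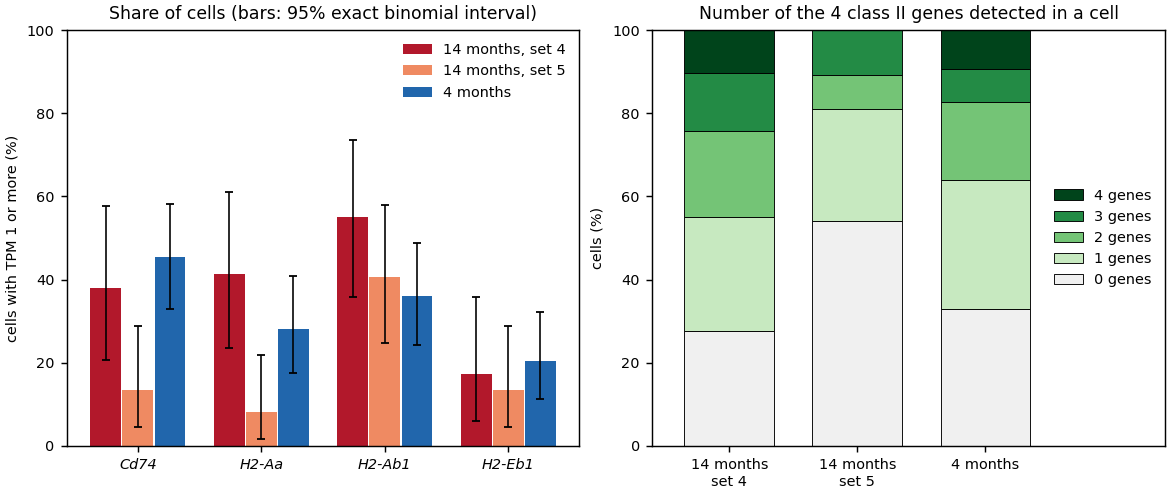
Left, share of kept cells with each class II gene at 1 TPM or more, with exact 95% binomial intervals; right, share of cells with 0 to 4 of these genes, for 14 months set 4, 14 months set 5 and 4 months. Set 5 has the lowest bars for Cd74, H2-Aa and H2-Eb1, while H2-Ab1 is higher in both 14-month sets than at 4 months.

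The levels were uneven. Cd74 had a mean of 26.1 TPM at 14 months (highest cell 532) and of 205 TPM at 4 months (highest cell 6982), and its 4-month mean without that cell was 97.1 TPM. H2-Aa averaged 65.5 TPM at 14 months (highest 1779) and 310 TPM at 4 months (highest 8775). H2-Ab1 averaged 63.8 TPM at 14 months (highest 926) and 221 TPM at 4 months (highest 7767). H2-Eb1 averaged 24.7 TPM at 14 months (highest 822) and 81.0 TPM at 4 months (highest 3097). The median over cells was 0 TPM for each of these genes at both ages, since most cells lacked the gene, although H2-Ab1 had a median of 2.04 TPM within set 4. Where H2-Ab1 was detected, its median level at 14 months was 48.0 TPM, against 140 TPM at 4 months.

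The mean levels at 4 months came mostly from a few cells. The sum of the 4 class II genes averaged 180 TPM over cells of 14 months and 816 TPM over cells of 4 months, with medians of 3.26 TPM at 14 months and 11.3 TPM at 4 months. The 3 highest cells held 38.0% of the summed TPM at 14 months and 86.9% at 4 months. Without them the 14-month mean was 117 TPM and the 4-month mean 112 TPM. A sum of at least 1000 TPM was reached by 3 cells of 14 months, all of set 4, and by 4 cells of 4 months.

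On the mean of log2(TPM + 1), which weights single cells less, Cd74 stood at 1.22 ± 2.45 in 14-month cells and 2.42 ± 3.38 in 4-month cells, a relative difference of -0.85 (-0.32 in set 4, -1.25 in set 5). H2-Aa stood at 1.19 ± 2.76 in 14-month cells and 1.64 ± 3.34 in 4-month cells, a relative difference of -0.093 (1.12 in set 4, -1.03 in set 5). H2-Ab1 stood at 2.59 ± 3.20 in 14-month cells and 2.50 ± 3.68 in 4-month cells, a relative difference of 0.45 (0.89 in set 4, 0.11 in set 5). H2-Eb1 stood at 0.90 ± 2.30 in 14-month cells and 0.96 ± 2.48 in 4-month cells, a relative difference of 0.29 (0.79 in set 4, -0.083 in set 5). None of the 4 passed the call over all cells, against 3.37% of all measured genes called higher and 5.08% lower. Of the measured genes, 7.57% had a lower difference than Cd74. Cd74 passed the lower call under other settings: -1.41 in cells matched on genes detected, -1.24 with a pseudocount of 0.1, and -1.10 both with no filter on low values and in cells with at least 2000 genes. H2-Ab1 reached 1.02 with a pseudocount of 0.1. The share of all measured genes past the call is not given for these other settings. Cd74 was below the median gene in both sets, past the call in set 5, and H2-Ab1 was above it in both, while H2-Aa passed the call in opposite directions in the 2 sets. The median over these 4 genes was 0.10, with 0.84 in set 4 and -0.56 in set 5, while the median of all measured genes is 0 by construction.

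Ciita (chr16:10480059-10528418, plus strand) was not detected in any of 66 cells at 14 months, where 3 cells, the limit taken for a count of 0, would be 4.55% (exact upper bound 5.44%), and in 1 of 64 cells at 4 months (1.56%, 0.040 to 8.40%). Its highest value at 14 months was 0.54 TPM, against 2.03 TPM at 4 months. The 1 cell of 4 months with Ciita had all 4 class II genes. In all other cells with class II transcripts Ciita was below 1 TPM. Single-cell cDNA misses many low transcripts, so a value of 0 does not show absence. Ciita was detected too rarely to count as measured and has no relative difference here. H2-Aa lies at chr17:34282744-34287823 on the minus strand, H2-Ab1 at chr17:34257689-34269419 on the plus strand and H2-Eb1 at chr17:34305867-34316674 on the plus strand, so these class II genes are near neighbours.

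The number of class II genes in a cell was spread more widely than the separate shares give. Among the 66 cells at 14 months, 28 had none of the 4 genes, 18 had 1, 9 had 2, 8 had 3 and 3 had all 4. The product of the shares gives 17.4, 29.2, 15.7, 3.43 and 0.26 cells, with both sets pooled although their shares differed. In set 4 alone, 8 of 29 cells had none and 3 had all 4, where the product gives 3.91 and 0.43. In set 5 alone, 20 of 37 cells had none and 0 had all 4, where it gives 15.1 and 0.022. Of the 64 cells at 4 months, 21 had none, 20 had 1, 12 had 2, 5 had 3 and 6 had all 4, where the product gives 12.8, 26.1, 18.8, 5.64 and 0.60. At both ages, cells with none and cells with all 4 were more frequent than under independent detection. Genes detected differed along with this number: cells with at least 2 class II genes had a median of 3585.5 genes, against 3049 in the others, at 14 months, and 4269 against 3860 at 4 months. Its part in the pattern was not tested.

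At least 2 of the 4 genes were found in 20 of 66 cells at 14 months (30.3%, 19.6 to 42.9%) and in 23 of 64 at 4 months (35.9%, 24.3 to 48.9%). Set 4 reached 44.8% and set 5 reached 18.9%. The product of the shares gives 19.4 such cells at 14 months and 25.0 at 4 months, close to these totals. Cells with exactly 2 genes were fewer than it gives (9 against 15.7 at 14 months, 12 against 18.8 at 4 months). Cells with 3 were more at 14 months (8 against 3.43) but not at 4 months (5 against 5.64). Cells with all 4 were more at both ages (3 against 0.26, and 6 against 0.60). The near match of the totals thus does not show independent detection. H2-Aa and H2-Ab1, which form the I-A heterodimer, were found together in 12 cells at 14 months, where the product of shares gives 7.05, and in 12 cells at 4 months, where it gives 6.47. That was 80.0% of the H2-Aa cells and 38.7% of the H2-Ab1 cells at 14 months, and 66.7% of the H2-Aa cells and 52.2% of the H2-Ab1 cells at 4 months. Cd74 and H2-Aa were found together in 9 cells at 14 months (3.64 by the product) and in 13 at 4 months (8.16). These 14-month products pool the sets, whose shares differed. Within set 4, H2-Aa was found with H2-Ab1 in 9 cells (6.62 by the product) and with Cd74 in 8 (4.55). Within set 5, H2-Aa was found with H2-Ab1 in 3 cells (1.22) and with Cd74 in 1 (0.41). Cells with 1 class II gene differed in which gene it was: H2-Ab1 was the only class II gene in 14 cells of 14 months (5 of set 4, 9 of set 5) and in 4 cells of 4 months, and Cd74 the only one in 2 cells of 14 months and in 9 of 4 months. Across cells, Spearman correlations between pairs of the 4 genes lay between 0.22 and 0.40 at 14 months and between 0.25 and 0.40 at 4 months. Within the 14-month sets they lay between 0.11 and 0.51 in set 4 and between 0.070 and 0.49 in set 5. Cd74 with H2-Aa was at 0.51 in set 4 and 0.11 in set 5, and H2-Aa with H2-Eb1 at 0.11 and 0.49.

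**Figure D4:**
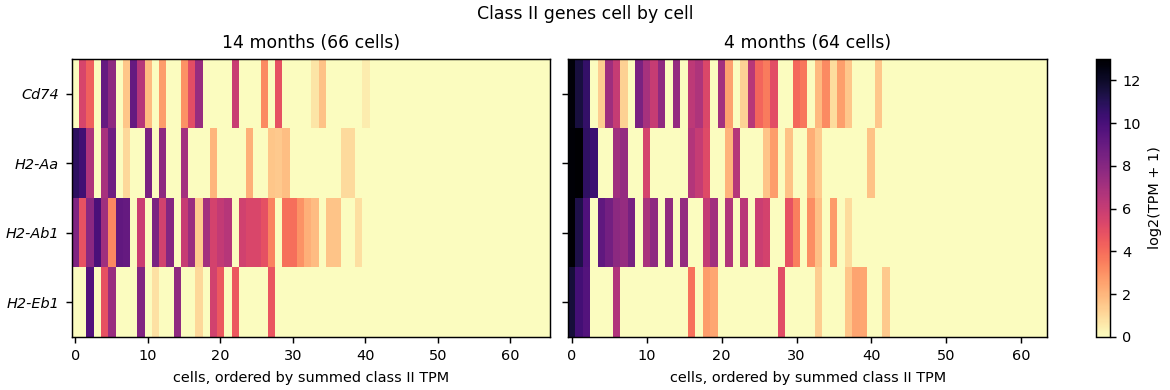
Level of Cd74, H2-Aa, H2-Ab1 and H2-Eb1, as log2(TPM + 1), in each kept cell of 14 months (left, 66 cells) and 4 months (right, 64 cells), with cells ordered by summed class II TPM. The 3 leftmost cells at 4 months are high for all 4 genes, whereas the leftmost cells at 14 months hold different subsets, and H2-Ab1 is the only one of the 4 genes in 14 cells of that age.

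The cells with the most class II RNA differed between the ages. The highest cell of 14 months, of set 4, had 1779 TPM of H2-Aa and 291 TPM of H2-Ab1, with Cd74 and H2-Eb1 at 0. The next had 1196 TPM of H2-Aa, with 41.4 TPM of Cd74 and 26.9 TPM of H2-Ab1, and the one after that had all 4 genes, led by H2-Eb1 at 822 TPM. None of these 3 cells had a marker of the dendritic cell list, while the first had Cd68 and the second Cd79b and Lyz2. At 4 months the highest cell had 6982 TPM of Cd74, 7372 of H2-Aa, 7767 of H2-Ab1 and 3097 of H2-Eb1. It also had 5985 genes detected, Irf8 at 155 TPM and 5 of the 9 dendritic cell markers: Itgax, Zbtb46, Batf3, Xcr1 and Clec9a. The B cell markers Cd79b and Vpreb1 and the macrophage markers Cd68 and Lyz2 were found in it as well. The second cell of 4 months had 8775 TPM of H2-Aa, Irf8 at 659 TPM, Batf3 and Cd68, and lacked Cd34. The third had 1689 TPM of H2-Aa and Ccr7, and lacked Irf8. Flt3 was detected in all 3 of these 4-month cells. Single cells were picked out here for their class II sum, so their levels are a description.

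Markers of cells that make class II molecules were counted over all kept cells. At least 1 of the 9 dendritic cell markers was found in 10 of 66 cells at 14 months and in 26 of 64 at 4 months, and at least 2 in 0 cells of 14 months and 6 of 4 months. Their summed level ranged from 0 to 93.6 TPM at 14 months and from 0 to 471 TPM at 4 months. Cd209a was at 0 in every cell of both ages. Zbtb46, Batf3 and Clec9a were at 0 in every cell of 14 months and were detected in only 1, 3 and 1 of 64 cells at 4 months. Xcr1 was found in 3 cells at 14 months and in 14 at 4 months, the most of this list at 4 months. At 14 and at 4 months, Itgax was found in 1 and 5 cells, Siglech in 1 and 4, Clec10a in 2 and 3, and Ccr7 in 3 and 4. Of the 8 B cell markers, Pax5 and Igll1 were among those at 0 in every cell, and Cd79b was found in 16 cells at 14 months and 25 at 4 months. The summed B cell markers ranged from 0 to 971 TPM at 14 months and from 0 to 1378 TPM at 4 months. Of the 8 macrophage and monocyte markers, Adgre1, C1qa and C1qb were among those at 0 in every cell, and Lyz2 was found in 37 cells at 14 months and 41 at 4 months. Csf1r was found in 4 cells at 14 months and 17 at 4 months, and Ly6c2 in 8 cells at 14 months, with a mean of 203 TPM, and in 0 at 4 months. The list's sum ranged from 0 to 11704 TPM at 14 months and from 0 to 1445 TPM at 4 months. Among cells with at least 2 class II genes, any dendritic cell marker was found in 3 of 20 at 14 months and in 9 of 23 at 4 months, against 7 of 46 and 17 of 41 among the other cells of 14 and of 4 months. In the same cells Flt3 was detected in 19 of 20 at 14 months and in 23 of 23 at 4 months, and Cd34 in 20 of 20 at 14 months and 22 of 23 at 4 months. The part of such cells in the class II values was not tested.

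Markers of lymphocytes that do not make class II molecules in the mouse were also counted. Cd3e, of T cells, and Ncr1 and Gzma, of natural killer cells, were at 0 in every cell. Lck, of T cells, was found in 18 cells at 14 months and 30 at 4 months. The 5 T cell markers summed to at most 874 TPM at 14 months and 595 TPM at 4 months. The 4 natural killer markers summed to at most 4136 TPM at 14 months and 1615 TPM at 4 months. Nkg7 was found in 48 cells at 14 months and 35 at 4 months.

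With both sets pooled, the other class II genes stood below the median gene at 14 months in all 5 measured of 6. Their median was -0.74 (-0.57 in set 4, -0.85 in set 5). Of these genes 0 were called higher and 1 lower, against 3.37% and 5.08% of all measured genes. By set, H2-Oa, at -0.35 when pooled, was above the median gene in set 4 (0.67) and below it in set 5 (-1.13). It was detected in 31.0% of set 4 and 5.41% of set 5. H2-DMa, a chain of the H2-DM exchanger that frees the groove for peptide, was detected in 69.7% of cells at 14 months (57.1 to 80.4%) and 81.2% at 4 months (69.5 to 89.9%), a relative difference of -0.92 (-0.94 in set 4, -0.90 in set 5). H2-DMb2, a gene for the other chain, was detected in 3 of 66 cells at 14 months (4.55%, 0.95 to 12.7%) and in 29 of 64 at 4 months (45.3%, 32.8 to 58.3%). Above 0 TPM it was listed in 16 cells at 14 months and 34 at 4 months, so the 14-month share depends on the limit of 1 TPM. At that limit it was found in 6.90% of set 4 and 2.70% of set 5, and its relative difference was -0.74. H2-DMb1, the near-identical copy, was detected in 25.8% of cells at 14 months and 39.1% at 4 months, the highest of this list at -0.33. Reads of these copies can be shared, so their division between the copies is uncertain. H2-Ob, a chain of the H2-DO modulator of H2-DM, was the lowest at -1.35, detected in 37.9% of cells at 14 months and 56.2% at 4 months. Its difference was -2.75 in set 4 and -0.24 in set 5. H2-Eb2 was detected in 1 cell of 14 months and in none of 4 months.

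H2-Oa, H2-DMb2 and H2-Eb2 were named here after their values were seen. H2-DMa was detected in more cells than Cd74, H2-Aa or H2-Ab1 at both ages.

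Most other class I genes stood below the median gene, unlike H2-K1, H2-D1 and B2m. Of 10 measured of 11, 2 had a difference above the median gene and 8 below it (0 called higher, 1 lower, against 3.37% and 5.08% of all measured genes), with a median of -0.46 (-0.52 in set 4, -0.37 in set 5). H2-Q4 was the lowest at -1.55, detected in 69.7% of cells at 14 months and 92.2% at 4 months, with a mean of 6.48 TPM at 14 months and 56.9 TPM at 4 months. H2-T24 was the highest at 0.57, detected in 13.6% of cells at 14 months and 15.6% at 4 months. H2-T23, which encodes Qa-1, the ligand of the CD94/NKG2 receptors, was detected in 90.9% of cells at 14 months and 98.4% at 4 months, a relative difference of -0.88 (-0.94 in set 4, -0.82 in set 5). Its median log2 ratio to B2m within a cell was -4.93 at 14 months (60 cells) and -4.24 at 4 months (60 cells). H2-T23 was named after its values were seen.

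Among 13 genes that make or load class I peptides, 4 had a difference above the median gene and 9 below. Their median was -0.32 (-0.33 in set 4, -0.58 in set 5). Of these genes 0 were called higher and 2 lower, against 3.37% and 5.08% of all measured genes. Canx, calnexin, which folds new heavy chains, was the highest at 0.94 (0.98 in set 4, 0.92 in set 5), with a mean of 834 TPM at 14 months and 506 TPM at 4 months. Its median log2 ratio to B2m was -1.68 at 14 months and -2.64 at 4 months. Tapbp, tapasin, which holds class I molecules to the peptide transporter, was the lowest at -1.10, but -0.36 in set 4 and -1.66 in set 5. Calr, calreticulin, was the other gene called lower, at -1.07, and was named after its values were seen. Tap1, a subunit of the transporter, was detected in 37.9% of cells at 14 months and 50.0% at 4 months, a relative difference of -0.17 (0.37 in set 4, -0.58 in set 5).

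The regulators of both classes had a median near that of all genes. Of 12 measured of 13, 5 had a difference above the median gene and 7 below, with a median of -0.19. Of these genes 1 was called higher and 0 lower, against 3.37% and 5.08% of all measured genes. Nlrc5, the class I transactivator, was detected in 21 of 66 cells at 14 months (31.8%, 20.9 to 44.4%) and in 19 of 64 at 4 months (29.7%, 18.9 to 42.4%), a relative difference of 0.22 (0.16 in set 4, 0.27 in set 5). Rfx5, a subunit of the RFX complex that binds X1 boxes, was detected in 12.1% of cells at 14 months and 12.5% at 4 months, a relative difference of 0.26. Nfyb, a subunit of NF-Y, was the highest at 1.18 (0.76 in set 4, 1.53 in set 5), detected in 40.9% of cells at 14 months and 34.4% at 4 months. Nfyc, another subunit, was the lowest at -0.89, detected in 25.8% of cells at 14 months and 45.3% at 4 months. Subunits of the same trimer thus stood at opposite ends of the list. Irf8, a factor of dendritic cell and B cell development, was detected in 30.3% of cells at 14 months (19.6 to 42.9%) and 48.4% at 4 months (35.8 to 61.3%), a relative difference of -0.64 (-0.92 in set 4, -0.40 in set 5).

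Interferon gamma is the best known inducer of Ciita and of class I genes. Of the 5 genes of its receptor pathway, 2 had a difference above the median gene and 3 below. Their median was -0.13 (-0.35 in set 4, 0.092 in set 5). None of them was called, against 3.37% called higher and 5.08% lower among all measured genes. Ifngr1, the ligand-binding chain, was detected in 56.1% of cells at 14 months and 67.2% at 4 months, a relative difference of -0.13. Ifngr2, the other chain, was the highest at 0.43, detected in 25.8% of cells at 14 months and 20.3% at 4 months.

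Of the 8 genes for lysosomal processing of class II, 4 were measured, with 1 above the median gene and 3 below and a median of -0.47. Among them 0 were called higher and 1 lower, against 3.37% and 5.08% of all measured genes. Ctss, cathepsin S, which trims the invariant chain, was detected in 48.5% of cells at 14 months and 54.7% at 4 months, a relative difference of 0.075. Ctsd, cathepsin D, was called lower at -1.27 (-1.94 in set 4, -0.73 in set 5). Of 4 costimulatory genes 2 were measured, Cd40 at 0.0069 and Cd86 at -0.26. Neither was called, against the same 3.37% and 5.08% of all measured genes.

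**Figure D5:**
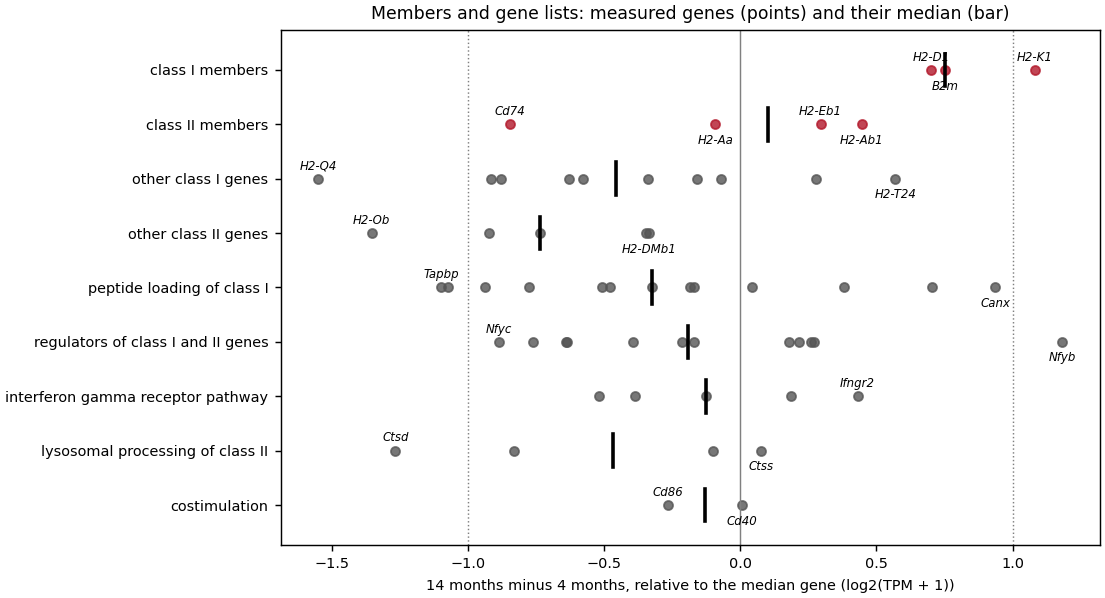
Difference of mean log2(TPM + 1), 14 months minus 4 months, relative to the median measured gene, for the measured members (red) and the genes of 7 lists (grey), with each list's median as a bar and dotted lines at the call limits of -1 and 1. The 3 class I members lie to the right, Cd74 lies at -0.85, and the other class I and class II genes lie mostly to the left.

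Genes whose levels ran most alike to the class II genes were sought among 6769 genes present in 20% or more of the cells of an age, by the mean of both within-age Spearman correlations with the mean log2(TPM + 1) of Cd74, H2-Aa, H2-Ab1 and H2-Eb1. The 6 highest were Mdm4 (0.39), Ubl5 (0.38), Dnttip2 (0.37), Zfp710 (0.36), Ap1m1 (0.35) and Ccz1 (0.35), over 66 cells of 14 months and 64 of 4 months. In sparse values such correlations are weak. For B2m the 4 most alike were Rps27rt (0.51), Rpl3 (0.49), Myl12a (0.49) and Rpl23a (0.49). The value for Rps27rt was uneven, 0.67 at 14 months and 0.36 at 4 months. None of these values was tested.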

How the data were processed

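The authors deposited 1 table of TPM values, 38924 genes by 168 cells, with each column summing to 1000000; Bowtie2 2.2.0, RSEM 1.2.12 and mm10 are named in the submitters' processing notes. Counts are not kept in TPM, so the depth is unknown, and intervals cover counting error of cells only. Column names give the age, not the labelled cell; the labels list 83 cells of 14 months for 84 columns, and age cannot be told apart from capture.

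From the TPM, log2(TPM + 1) with a pseudocount of 1 was computed here, which understates differences of low genes. Cells under 1000 genes at 1 TPM were left out (18 of 14 months, 20 of 4 months), and no doublet caller was run, since one needs counts and the chip was imaged. With 1 sample per age there is no test; a gene is called at a relative difference of at least 1 in size. Symbols matched 37607 identifiers. All members were named, with the highest and lowest measured gene of each list and 8 fixed partners; exceptions are marked, and some genes of the lists are not reported here by name. Members and lists were chosen with earlier results of these data known. Coordinates are of GENCODE M21. The computation was tested on simulated data. Python 3.11.15, numpy 2.4.6, pandas 2.3.3 and scipy 1.17.1 were used. Changes of pseudocount, filters, scaling, cells and sets were tried as alternatives.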

Additional observations from a re-analysis of the deposited data

Results flagged for a closer look

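Signal of class I genes was found in columns outside the comparisons, those with fewer than 1000 genes, above the share that a count of 0 allows. At 14 months (18 columns, of which 16 of set 4) B2m was at 1 TPM or more in 12 columns (66.7%, 41.0 to 86.7%), H2-K1 in 12 (66.7%) and H2-D1 in 10 (55.6%, 30.8 to 78.5%), where a count of 0 allows 16.7%. At 4 months (20 columns) B2m was found in 7 (35.0%, 15.4 to 59.2%) and H2-K1 in 9 (45.0%, 23.1 to 68.5%), where a count of 0 allows 15.0%. H2-D1, in 3 of these 20 columns (15.0%), did not exceed that limit. Whether these columns held cells was not tested.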

How the results depend on the processing

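The median relative difference of the class I genes, 0.75 as reported, was positive under 17 of 18 alternatives and moved with most. It was 0.38 with a pseudocount of 10 and 1.19 with 0.1, 0.50 with no filter on low values, 0.89 with genes in at least 30% of cells, 0.82 with detection at 10 TPM, 1.55 over every column, 0.65 in cells with at least 2000 genes, 0.92 without mitochondrial transcripts, 1.03 in 48 pairs of cells matched within 250 genes detected, 0.82 with set 4 alone, 0.90 with set 5 alone, 0.69 without 7 cells of 14 months correlated above 0.75 with another, and -0.013 with medians over cells. H2-K1 fell below its call at 0.66 with a pseudocount of 10, 0.82 with no filter, 0.71 in cells with at least 2000 genes, 0.998 with set 4 alone and 0.36 with medians. Calls gained by B2m, H2-D1, Cd74 and H2-Ab1 are given with those genes; Cd74, -0.85 as reported, reached -1.41 in matched cells. The share of cells with at least 2 class II genes moved to 18.2% at 14 months and 20.3% at 4 months with detection at 10 TPM, and at 14 months to 44.8% in set 4 and 18.9% in set 5. The class II median, 0.10, ranged from -0.56 (set 5) to 0.84 (set 4), and was negative under 4 alternatives: set 5, a pseudocount of 10, genes in at least 30% of cells, and quantile normalization. With genes in at least 30% of cells, H2-Aa and H2-Eb1 dropped out. That median, -0.064, was thus over Cd74 (-0.71) and H2-Ab1 (0.58) alone. The cause of these shifts was not tested. Leaving out the 3 highest class II cells of each age, an alternative chosen after seeing the data, gave -0.50 for Cd74 and 0.34 for the class II median. No paired analysis was possible because each age is 1 sample and the columns carry no replicate number.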
